A study of Mus musculus with 24 samples.

Results

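Sacral and lumbar dorsal root ganglia (DRG) of male mice were compared in 5 animals, each of which gave a lumbar sample and a sacral sample. These 10 samples were chosen from 24 by their labels, as the male sacral samples and the male lumbar samples with the same mouse number (11 to 15), and the other 14 samples were female. All mice were adult C57Bl6 animals of 6 to 8 weeks with no treatment or genetic change named in the labels, and all 10 male samples belonged to batch 2. The study took the sacral sample from the last lumbar and the first sacral ganglion, where most sensory neurons of the pelvic organs lie, and the lumbar sample from the ganglia just above. Nerve roots were cut off before the RNA was extracted, so a sample holds whole ganglia with their neurons, glia, vessels and blood.

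DRG neurons carry touch, position sense, temperature, itch and pain from the body to the spinal cord. Large neurons with thick myelinated axons serve touch and position sense, and small neurons, many of them peptidergic nociceptors that release substance P and CGRP, serve pain and most visceral sensation. Satellite glia wrap each cell body and Schwann cells wrap the axons, and the pelvic organs are known for a rich supply of peptidergic axons. In bulk samples, fewer cells of a type and less RNA per cell cannot be told apart.

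Levels are given as log2 RPKM, the log2 of reads scaled by gene length and library size, and a change is the sacral minus the lumbar level on that scale. The value of a single read gave effective library sizes in M reads (M being the SI prefix mega) of 38.3 to 44.6 in lumbar and 35.9 to 41.5 in sacral samples. The sacral minus lumbar difference was −3.17 ± 4.33 M reads (SD of 5 pairs; exact sign-flip test, two-sided, p = 0.188; the smallest p that 5 pairs allow is 0.0625). Mitochondrial transcripts took 26.0% to 41.5% of reads in lumbar and 31.5% to 42.4% in sacral samples. Their share was higher in sacral ganglia in 4 of 5 mice and lower in mouse 11, with a mean difference of 5.95 ± 9.62 percentage points (SD of 5 pairs; exact sign-flip p = 0.188). All 14 pan-neuronal marker genes were detected, with a summed level of 3066 to 3821 RPKM in lumbar and 2700 to 3223 RPKM in sacral samples. Of 8 spinal cord markers, 6 had values and 2 reached 1 RPKM, with sums of 1.27 to 3.50 RPKM in lumbar and 1.36 to 5.36 RPKM in sacral samples, and the oligodendrocyte genes Olig2 and Mog were blank in all 10 samples. Of 8 markers of autonomic neurons, 6 also had values and 4 reached 1 RPKM, and Dbh, which marks sympathetic neurons, was blank throughout. Pearson r across genes between the 10 samples was 0.781 to 0.877, and no sample columns were identical.

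Spinal level was the leading axis of variation among the male samples. Component 1 of a principal component analysis held 18.1% of the variance, and level accounted for 85.4% of its spread. The 5 lumbar samples scored −57.4 to −10.9 on it and the 5 sacral samples 21.4 to 55.7, so the levels did not overlap. Component 2 (13.5% of the variance) set the sacral sample of mouse 12 apart at −79.8, and component 3 (12.6%) set the lumbar samples of mice 11 (−76.1) and 15 (58.7) apart.

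Among 12650 genes tested, 82 differed between levels in males (limma, Benjamini-Hochberg adjusted p of 0.05 or less), which is 0.648% of them. The level was higher in sacral DRG for 37 genes (0.292%) and lower for 45 (0.356%). Receptors, peptide precursors and channels of small sensory neurons were among the rises, and genes of myelin and of large neurons were among the falls. Of the 82 genes, 80 moved in the same direction in all 5 mice, against 10% of all tested genes, and in 77 the sacral and lumbar values did not overlap, against 2.51% of all tested genes. The median absolute change was 1.3 in the called genes and 0.25 in all tested genes, and 58 of the 82 changed more than 2-fold. Before adjustment, 1419 genes (11.2%) had a p under 0.05. The count moved with single libraries. It was 54, 46 and 37 without the lumbar sample of mouse 11, 13 or 15, and 36, 33 and 34 without both samples of mouse 11, 13 or 15. The balance of directions moved too, with 58 higher and 32 lower without the sacral sample of mouse 12, and 23 higher and 14 lower without the lumbar sample of mouse 15, so neither direction is read as the more frequent. With each mouse as a fixed block in the 5 male pairs, 31 genes were called (17 higher and 14 lower), 25 of them shared with the 82. Among the genes given below as called, Bmpr1b, Hoxd11, Esr1, Gabrg3, Kcnk2, Mboat1, Fa2h, Serpind1, Cdh12, Fam107a, Zfp503, D430041D05Rik, Reln, Ypel2, Cacna2d1, Htr1d, Ntrk3, Nefh, Pmp22, Drp2, Vstm2b, Fxyd3, Prkar1a, Scg2, Sema3b, Sema5a, Sema7a and Plxna1 were not called with that block (limma adjusted p = 0.0549 to 0.340), while Uts2d was gained. Among males, the called genes Srd5a2, Esr1, Bmpr1b and Gabrg3 averaged at least 0 in sacral samples alone, and Mboat1, Cdh12, Zfp503, Vstm2b and Fxyd3 in lumbar samples alone, so the filter on low genes (a mean log2 RPKM of at least 0 in a group) bears on the sign of their changes. With no filter, Zfp503 was not called (limma adjusted p = 0.0728), and the others of these were called (adjusted p = 0.00575 to 0.0418).

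**Figure D1:**
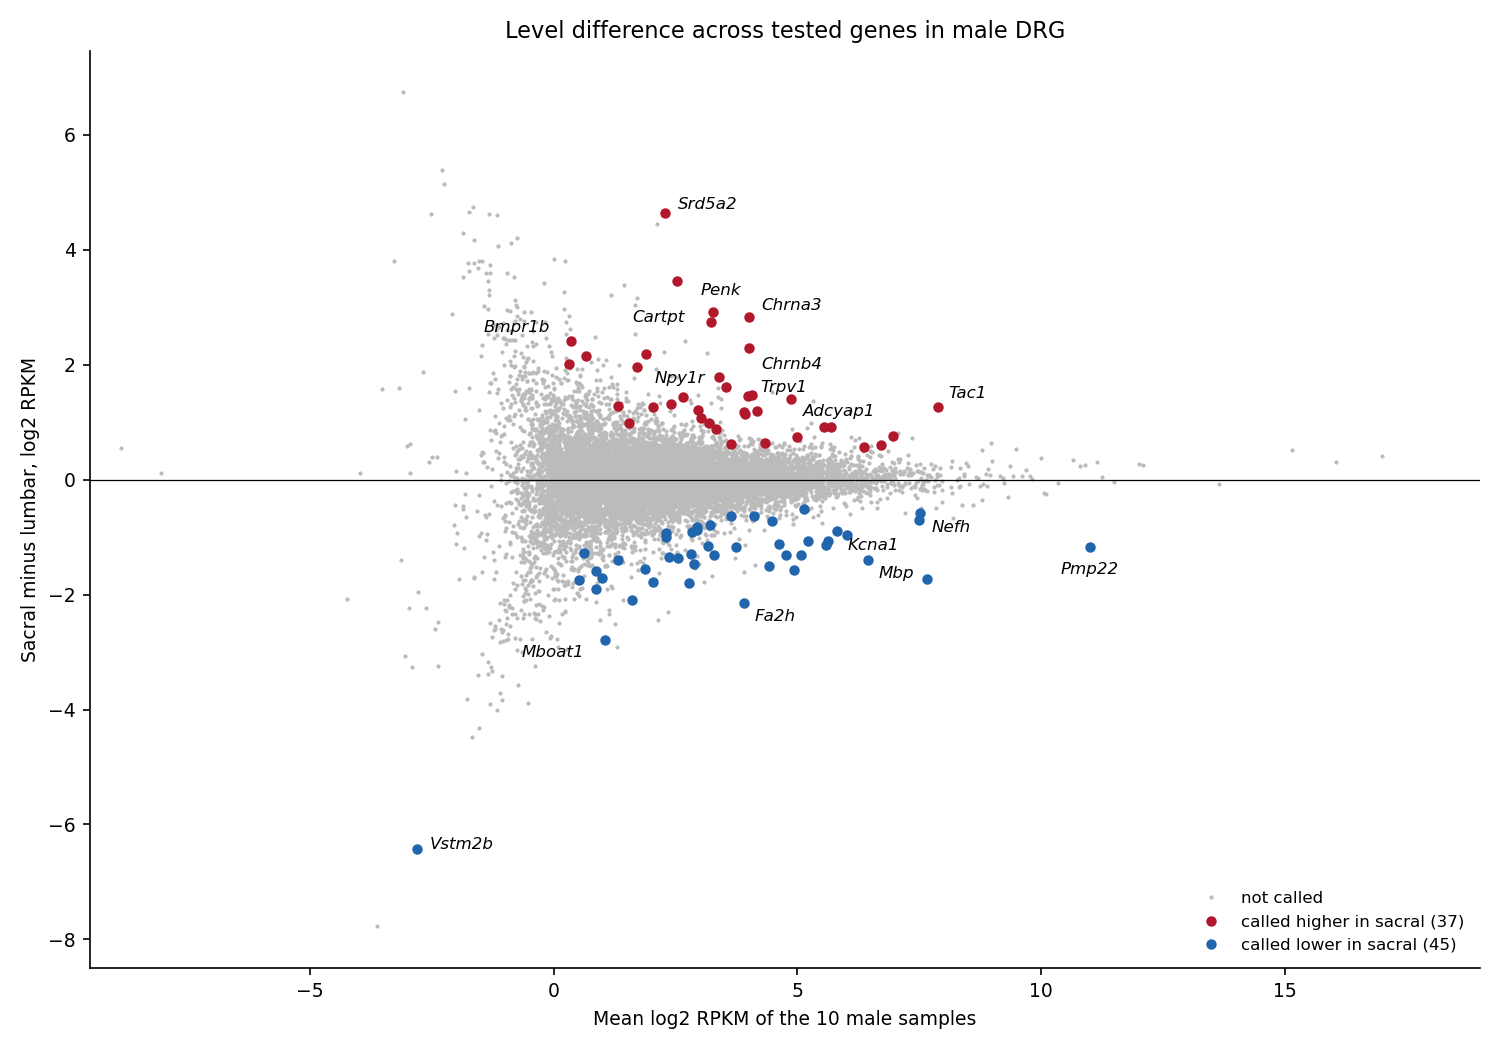
Each point is a tested gene, with its mean log2 RPKM over the 10 male samples on the x axis and the sacral minus lumbar change in log2 RPKM on the y axis. The 37 genes called higher are red, the 45 called lower are blue, and the median change of all tested genes is 0.01. Some genes that were not called, such as Hoxc12 at 6.74, lie as far from 0.

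Tac1, Cartpt, Penk and Adcyap1, precursors of neuropeptides, rose in sacral DRG. They were 4 of 12 tested precursors on a list of 32, against 0.292% of all tested genes called higher, and none of the 12 was called lower. In 8 of the 12 the level was higher in every mouse, against 608 of all 12650 tested genes. The median change of the 12 was 0.89, against 0.01 over all tested genes. Of the 12, Uts2d averaged at least 0 among males in sacral samples alone, and Nppb in lumbar samples alone. The filter on low genes thus bears on their signs, and the counts and the median that include them are descriptions. Tac1, the precursor of substance P and neurokinin A, was the most firmly called gene. Its lumbar levels in mice 11 to 15 were 7.58, 7.35, 7.21, 7.34 and 6.77, and its sacral levels were 8.77, 8.46, 8.58, 8.43 and 8.38. Every sacral sample was above every lumbar sample, and the spread within each level was small next to the gap. The change was 1.27 ± 0.14 (SE of the fit to all 24 samples, with 5 male mice; limma adjusted p = 1.81e-05).

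Cartpt encodes the precursor of CART peptides, which mark many visceral sensory neurons. It had lumbar levels of 2.76, 2.22, 1.71, 1.55 and 1.12 and sacral levels of 5.13, 4.09, 5.19, 4.74 and 3.90, with no overlap. It rose by 2.74 ± 0.38 (SE; limma adjusted p = 3.66e-04). Penk, the precursor of enkephalins, the endogenous opioid peptides (chr4:4060678-4065966, mm9, minus strand), had lumbar levels of 2.51, 1.74, 2.28, 1.19 and 1.37 and sacral levels of 5.05, 4.63, 4.24, 4.78 and 4.97. The lowest sacral sample was thus well above the highest lumbar sample, and the rise was 2.92 ± 0.50 (SE; adjusted p = 0.00392). Adcyap1, which encodes the peptide PACAP, went from 4.62, 4.29, 4.49, 4.14 and 3.29 to 5.82, 5.42, 5.96, 5.32 and 5.32, a rise of 1.40 ± 0.24 (SE; adjusted p = 0.00390). The levels were again separate, and mouse 15 had the lowest lumbar level of Adcyap1, of Tac1 and of Cartpt.

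Promoters are shown for Tac1 and Cartpt because they lead the peptide genes and because the cyclic AMP response element (CRE), the site of CREB proteins, is a classical element of peptide gene promoters. The sequences are from RefSeq (GRCm38.p6) and run 5′ to 3′ on the gene's strand from 250 bases before to 50 bases after the start of transcription. Each was also found once, by exact match, in the mm9 build that the deposited values use. Capitals mark the CRE core TGACG or its reverse complement CGTCA, and the GC box GGGCGG or its reverse complement CCGCCC. The Tac1 promoter is at chr6:7504811-7505110 (mm9, plus strand) and the Cartpt promoter at chr13:100670589-100670888 (mm9, minus strand).
Tac1: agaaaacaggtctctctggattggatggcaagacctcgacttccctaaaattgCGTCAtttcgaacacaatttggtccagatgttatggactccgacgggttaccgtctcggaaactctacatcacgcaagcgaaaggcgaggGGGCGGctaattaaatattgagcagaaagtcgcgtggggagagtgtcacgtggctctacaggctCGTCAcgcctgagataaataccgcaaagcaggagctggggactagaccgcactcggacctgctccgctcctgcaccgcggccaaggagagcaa
Cartpt: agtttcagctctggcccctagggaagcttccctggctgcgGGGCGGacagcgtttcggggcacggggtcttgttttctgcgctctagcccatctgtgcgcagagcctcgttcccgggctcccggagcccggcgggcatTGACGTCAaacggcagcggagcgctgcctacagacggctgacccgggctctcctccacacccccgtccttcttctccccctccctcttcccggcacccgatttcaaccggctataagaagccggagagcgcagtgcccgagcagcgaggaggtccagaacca

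The Cartpt window holds the full CRE TGACGTCA, which contains the core on each strand, starting 112 bases before the start of transcription. The Tac1 window holds the core at 197 and at 43 bases before the start, and no full CRE. Over 32851 promoters of the same length, both strands searched, 20.8% hold the core, 1.79% the full CRE and 35.7% the GC box. Of the 36 gene names called higher, 27 had promoters in the table, 45 in all, and 13 of the 45 (28.9%) held the core, 4 (8.89%) the full CRE and 23 (51.1%) the GC box. The full CRE was in promoters of Cartpt, Prkar1a and Scg2. For the 45 genes called lower, 25 had promoters, 35 in all, with the core in 5 (14.3%), the full CRE in 0 and the GC box in 22 (62.9%). Some of these promoters overlap within a gene, and Penk had no entry. A match of letters describes the window and was not tested against the change.

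The other precursors did not pass the threshold. Calca, the precursor of CGRP, was the most abundant, at 8.53 ± 0.10 in lumbar samples and 9.04 ± 0.24 in sacral ones (SD, n = 5). Its levels did not overlap, and the difference was 0.51 ± 0.13 (SE; adjusted p = 0.0756). Uts2d, the precursor of a urotensin peptide, had lumbar levels of 1.68, −1.80, 0.44, −2.72 and 1.86 and sacral levels of 5.03, 4.61, 4.76, 3.98 and 3.36. Its levels also did not overlap, with a large difference and a large error (4.45 ± 1.09, SE; limma adjusted p = 0.0534). A fixed block for each mouse over the same 5 pairs called Uts2d (4.45 ± 0.67, SE; limma adjusted p = 0.0363). The galanin precursor Gal was higher in sacral samples in every mouse (difference 3.04 ± 1.05, SE; adjusted p = 0.219), with 1 blank lumbar sample. Sst, Nts, Nmb and Nppb had differences of −0.35, −0.88, −0.08 and −1.47 and were each lower in 3 of 5 mice.

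Of 19 tested receptors for neuropeptides, Npy1r alone was called, higher as were 0.292% of all tested genes, and the median change was 0.15. Npy1r, the Y1 receptor for neuropeptide Y, had lumbar levels of 3.21, 2.63, 2.56, 2.83 and 2.40 and sacral levels of 4.30, 4.23, 4.59, 4.54 and 4.04. The groups were separate and the rise was 1.61 ± 0.22 (SE; limma adjusted p = 3.66e-04). Galr1, a galanin receptor, differed by 2.05 ± 0.51 (SE; adjusted p = 0.0586) with separate groups, and Oprl1, the nociceptin receptor, by −1.65 ± 0.55 (SE; adjusted p = 0.197) with groups that overlapped.

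The nicotinic acetylcholine receptor subunits that form the ganglionic receptor both rose. Of 9 tested acetylcholine receptor genes, Chrna3 and Chrnb4 were called, both higher (0.292% of all tested genes were), and the median change of the 9 was 0.30. Chrna3, the alpha subunit, had lumbar levels of 2.08, 2.27, 3.52, 3.08 and 1.95 and sacral levels of 5.45, 4.83, 6.03, 5.53 and 5.26. Its partner Chrnb4 had lumbar levels of 2.03, 2.41, 3.01, 3.66 and 3.21 and sacral levels of 5.23, 4.43, 5.35, 5.84 and 4.94. No sacral value of either gene reached down to a lumbar value. Chrna3 rose by 2.84 ± 0.37 (SE; limma adjusted p = 2.83e-04) and Chrnb4 by 2.29 ± 0.33 (SE; adjusted p = 6.00e-04). Chrnb3, a further subunit, was higher in 4 of 5 mice (difference 1.39 ± 0.35, SE; adjusted p = 0.0675), and Chrna7, which forms a receptor on its own, had separate groups in the other direction (−0.94 ± 0.34, SE; adjusted p = 0.251). Summed markers of autonomic neurons, which carry the same ganglionic receptor, were 16.9 to 28.3 RPKM in lumbar and 17.6 to 28.9 RPKM in sacral samples. That sum includes Th, at 3.99 ± 0.37 in lumbar and 4.28 ± 0.34 in sacral samples (log2 RPKM, SD, n = 5). Th also marks low threshold mechanoreceptors with C fibres, so the sum does not follow autonomic neurons alone and nothing is read from it.

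Chrna3 and Chrnb4 are neighbours on the minus strand of chromosome 9, at chr9:54859150-54874366 and chr9:54875963-54896351 (mm9). Their promoters are shown because the genes moved together. They lie at chr9:54874320-54874619 and chr9:54896302-54896601 (mm9, minus strand), and capitals mark the same motifs as above.
Chrna3: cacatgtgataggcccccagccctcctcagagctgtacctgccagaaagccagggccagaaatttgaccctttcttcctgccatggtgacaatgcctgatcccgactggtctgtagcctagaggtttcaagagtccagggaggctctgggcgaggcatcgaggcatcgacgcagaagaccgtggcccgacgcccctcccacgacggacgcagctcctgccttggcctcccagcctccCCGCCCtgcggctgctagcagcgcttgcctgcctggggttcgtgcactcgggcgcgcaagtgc
Chrnb4: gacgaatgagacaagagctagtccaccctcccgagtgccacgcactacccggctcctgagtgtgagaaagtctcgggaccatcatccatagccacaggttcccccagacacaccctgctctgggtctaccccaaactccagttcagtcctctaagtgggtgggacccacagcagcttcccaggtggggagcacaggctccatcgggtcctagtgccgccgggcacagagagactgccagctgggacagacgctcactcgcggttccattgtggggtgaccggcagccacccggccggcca
The Chrna3 window holds a GC box 13 bases before the start of transcription, and the Chrnb4 window holds none of these letters.

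Other channels and receptors on the study's curated lists changed gene by gene. Of the 244 tested genes on its 10 functional lists (298 genes), 7 were called higher and 3 lower, which is 4.1% of them, against 0.648% of all tested genes. These lists and the genes singled out in the study's text were drawn up for the same comparison, so their counts are not independent evidence. Trpv1, the capsaicin and heat receptor of nociceptors, had lumbar levels of 3.85, 3.31, 3.18, 2.88 and 3.04 and sacral levels of 4.91, 4.44, 5.09, 4.55 and 4.57. It rose by 1.46 ± 0.25 (SE; limma adjusted p = 0.00440) with no overlap, and was the called member among 12 tested TRP channels (0.292% of all tested genes were called higher), 10 of which had a change above 0, against 6496 of all 12650 tested genes. Of those 10, Trpm2, Trpc4 and Trpm4 averaged at least 0 among males in sacral samples alone. The filter on low genes bears on their sign, so nothing is read from that count. Kcnk2, a background potassium channel (TREK-1), rose from 0.73 ± 0.29 to 2.70 ± 0.63 (SD, n = 5; change 1.97 ± 0.32, SE; adjusted p = 0.00252).

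Gabrg3, a GABA receptor subunit, rose by 2.01 ± 0.45 (SE; limma adjusted p = 0.0331) and Cacna2d1, the calcium channel subunit bound by gabapentin, by 0.75 ± 0.16 (SE; adjusted p = 0.0236). Gfra3, the receptor for artemin, went from 3.58 ± 0.42 to 4.77 ± 0.27 (SD, n = 5; change 1.19 ± 0.24, SE; adjusted p = 0.0144). Among genes that fell, Kcna1, a potassium channel of myelinated axons, changed by −0.90 ± 0.16 (SE; adjusted p = 0.00666) and Htr1d, a serotonin receptor that is the target of triptan drugs, by −1.31 ± 0.28 (SE; adjusted p = 0.0236). In all 5 genes the sacral and lumbar groups were separate. The differences of Htr3a (0.74), Grin3a (0.97) and Gabra3 (0.60) did not pass the threshold (adjusted p = 0.182, 0.0682 and 0.392), nor did that of Kcng4 (−0.64; adjusted p = 0.654). None of the 10 sodium channels, 10 chloride channels or 48 transcription factors on the curated lists was called.

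Steroid signalling gave the largest called rise. Srd5a2 (chr17:74367046-74397256, mm9, minus strand) encodes steroid 5-alpha-reductase type II, which turns testosterone into dihydrotestosterone and also acts in neurosteroid synthesis. Its lumbar levels in mice 11 to 15 were −1.34, −0.07, 0.71, 1.5 and −0.97, and its sacral levels were 4.45, 4.14, 5.26, 4.72 and 4.48. The lowest sacral sample was thus far above the highest lumbar sample, and the lumbar samples themselves were widely spread. The change was 4.64 ± 0.94 (SE; limma adjusted p = 0.0144). The 7 female sacral samples had a median Srd5a2 level of −1.21 and a highest level of 1.21, below every male sacral sample, with 1 of them blank, and 6 of 7 female lumbar samples were blank.

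Esr1, the estrogen receptor alpha (chr10:5340927-5734948, mm9, minus strand), had lumbar levels of −0.52, −1.30, −0.76, −0.02 and 0.56 and sacral levels of 1.64, 1.57, 2.03, 1.89 and 1.57. It was a gene of low level that rose in every mouse, by 2.15 ± 0.37 (SE; limma adjusted p = 0.00390). The other 13 tested steroid enzymes and receptors were not called, with 0.292% of all tested genes called higher, and nothing is read from the count because the filter on low genes bears on the sign of both Srd5a2 and Esr1. Srd5a1, the other main 5-alpha-reductase, was at 2.21 ± 0.50 in lumbar samples and 1.75 ± 0.68 in sacral ones (SD, n = 5; difference −0.46 ± 0.33, SE; adjusted p = 0.661).

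**Figure D2:**
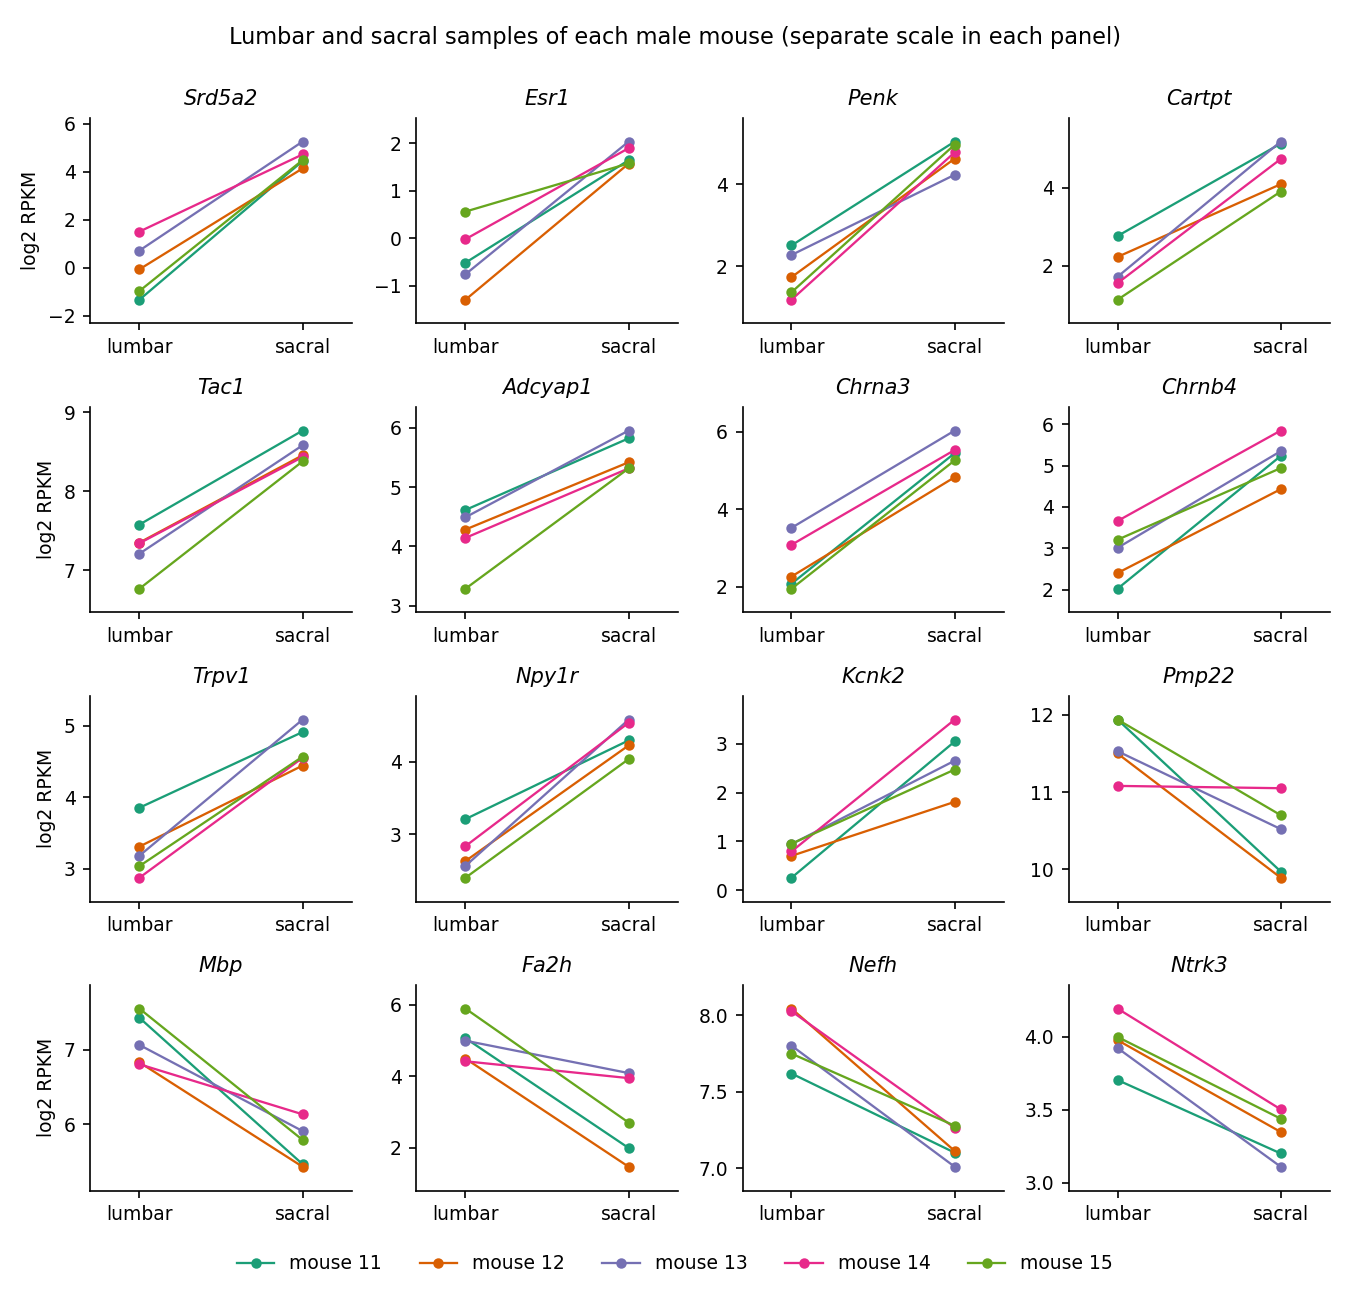
Each panel shows the log2 RPKM of a gene in the lumbar and sacral sample of each of 5 male mice, joined by a line. Lines rise in all 5 mice for the 11 genes from Srd5a2 to Kcnk2 and fall in all 5 for Pmp22, Mbp, Fa2h, Nefh and Ntrk3, and the falls of Pmp22, Mbp and Fa2h are smallest in mouse 14.

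The remaining largest rises were Gm20440 (3.46 ± 0.59, SE; limma adjusted p = 0.00390), Bmpr1b, a bone morphogenetic protein receptor (2.42 ± 0.43, SE; adjusted p = 0.00548), Hoxd11 (2.19 ± 0.43, SE; adjusted p = 0.0107) and Negr1, a neuronal growth and adhesion molecule (1.78 ± 0.23, SE; adjusted p = 2.83e-04). Gm20440 is a transcript whose span covers parts of Hoxd10 and Hoxd11, so its reads and theirs may not be separable. Negr1 had a narrow sacral group, from 4.18 to 4.49, above lumbar levels of 2.00 to 2.82. Gap43, a growth-associated protein of axons, differed by 0.62 ± 0.22 (SE; adjusted p = 0.227).

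Hox genes, which are laid down in order along the body axis and whose higher numbered members belong to more caudal levels, were read next. Of 18 tested Hox genes Hoxd11 alone was called, with 0.292% of all tested genes called higher, at 0.80 ± 1.06 in lumbar samples and 2.99 ± 0.35 in sacral ones (SD, n = 5). Among males, Hoxd10, Hoxc11 and Hoxc12 averaged at least 0 in sacral samples alone, and Hoxa5, Hoxb6, Hoxc6, Hoxb8, Hoxc8 and Hoxb9 in lumbar samples alone, so the filter on low genes bears on the sign of these 9 and no order is read from them. The other 9 averaged at least 0 at both levels, and their differences were −0.45 for Hoxd1, −0.96 for Hoxb5, 0.15 for Hoxa7, 0.93 for Hoxd8, 0.11 for Hoxa9, 0.66 for Hoxd9, 0.17 for Hoxa10, 0.70 for Hoxc10 and 2.19 for Hoxd11. Hoxc12 was blank in all 5 lumbar samples and at −1.24 to 1.26 in sacral samples, so its difference rests on the value set for blanks, and Hoxc10 was at 3.71 ± 0.35 and 4.41 ± 0.49 (SD, n = 5; adjusted p = 0.337). Hoxc8 and Hoxb9, at differences of −2.78 ± 1.18 and −2.97 ± 0.84 (SE; adjusted p = 0.358 and 0.113), were lower in 5 and 4 of 5 mice.

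**Figure D3:**
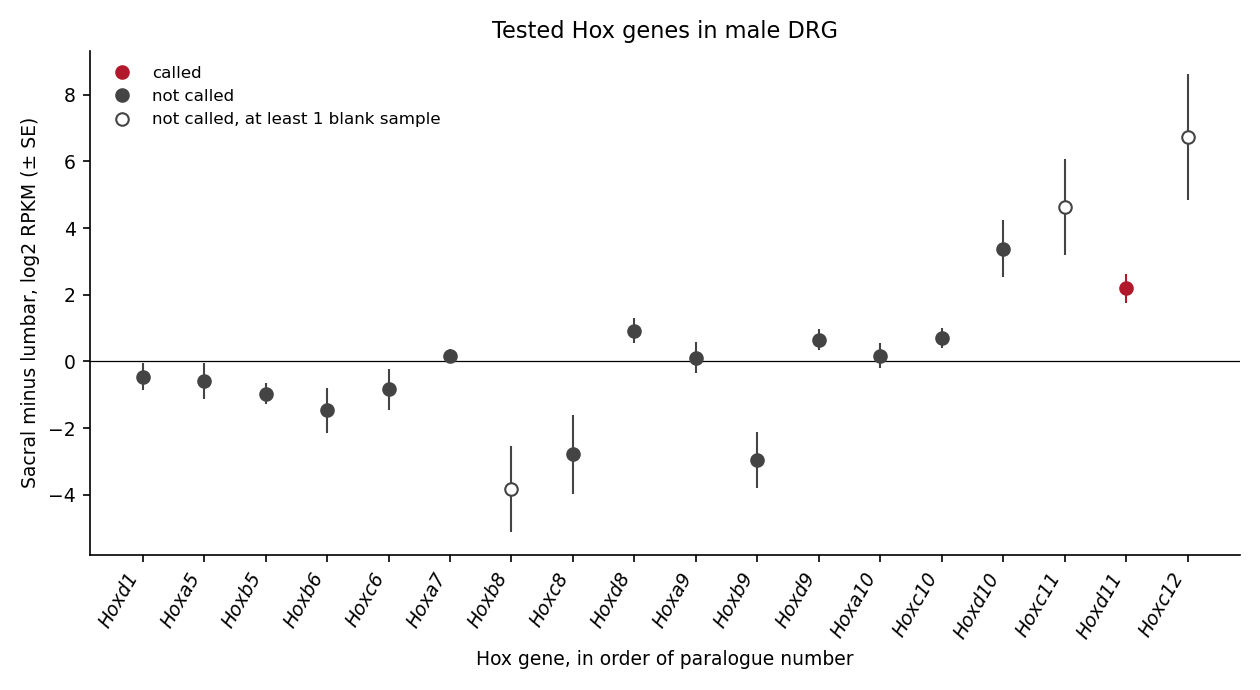
Sacral minus lumbar difference in log2 RPKM, with its SE, for the 18 tested Hox genes in order of paralogue number. Hoxd11, the called gene, is in red at 2.19, and open points mark genes with blank samples, among them Hoxc11 and Hoxc12 with the highest values, whose sign the filter on low genes bears on.

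Genes of myelin were among those that fell in sacral DRG. Of 17 tested markers of myelinating Schwann cells, 7 were called and all 7 were lower, against 0.356% of all tested genes called lower. In 16 of the 17 the level was lower in every mouse, against 657 of all 12650 tested genes, and the median change was −1.39 against 0.01. Mbp, myelin basic protein, had lumbar levels of 7.43, 6.83, 7.07, 6.81 and 7.55 and sacral levels of 5.47, 5.43, 5.91, 6.14 and 5.79. The groups were separate, with the widest gap within mouse 11 and the narrowest within mouse 14, and the change was −1.39 ± 0.24 (SE; limma adjusted p = 0.00390). Pmp22, the peripheral myelin protein and the most abundant called gene, changed by −1.18 ± 0.23 from 11.6 ± 0.36 (SD, n = 5; adjusted p = 0.0102). Fa2h and Ugt8a, enzymes that make the galactolipids of myelin, changed by −2.14 ± 0.43 and −1.57 ± 0.35 (SE; adjusted p = 0.014 and 0.0336). Mal, a protein of myelin membrane traffic, changed by −1.14 ± 0.23 (SE; adjusted p = 0.0144), and Drp2, a scaffold of the outer myelin surface, by −1.12 ± 0.25 (SE; adjusted p = 0.0339).

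The 10 uncalled myelin markers included Prx (−1.49 ± 0.36, SE; limma adjusted p = 0.0534), Cldn19 (−1.68 ± 0.43, SE; adjusted p = 0.0682) and the Schwann cell transcription factor Egr2 (−1.63 ± 0.85, SE; adjusted p = 0.488). The summed level of the 19 listed markers was 5098, 3579, 3897, 2849 and 5154 RPKM in the lumbar samples of mice 11 to 15 and 1272, 1177, 1952, 2539 and 2048 RPKM in the sacral samples. In mouse 14 the 2 levels were thus close, and in mouse 11 they were farthest apart. The number of called myelin markers fell from 7 to 3 without the lumbar sample of mouse 15, to 4 without that of mouse 13 or the sacral sample of mouse 11, to 1 without mouse 11 or mouse 15 altogether, and to 4 without mouse 13. Satellite glia markers had a median change of 0.04 with none of 10 called. Their summed level was 417 to 514 RPKM in lumbar and 439 to 574 RPKM in sacral samples and was higher in sacral in all 5 mice (mean log2 ratio 0.17 ± 0.10, SD, n = 5). Among them the difference of Fabp7 was 0.72, above 0 in every mouse, and those of Sox10 and Cdh19 were −0.63 and −0.71, below 0 in every mouse.

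The remaining largest falls were mostly of genes outside the lists. They were Mboat1, a lysophospholipid acyltransferase (−2.79 ± 0.56, SE; limma adjusted p = 0.0144), Serpind1, heparin cofactor II (−2.09 ± 0.50; adjusted p = 0.0473), Cdh12, a cadherin (−1.91 ± 0.35; adjusted p = 0.00666), and Hapln4, a link protein of perineuronal matrix (−1.80 ± 0.38; adjusted p = 0.0209). Smaller falls were those of Fam107a (−1.78 ± 0.42; adjusted p = 0.049), Zfp503 (−1.76 ± 0.41; adjusted p = 0.0435), D430041D05Rik (−1.71 ± 0.34; adjusted p = 0.012), the extracellular protein gene Reln (−1.59 ± 0.38; adjusted p = 0.0473) and Ypel2 (−1.56 ± 0.36; adjusted p = 0.0407). In all 9 the groups were separate, although the error was wide. Serpind1 lies inside the gene Pi4ka on the opposite strand, and whether counting used strand is not given in the sources used here. Vstm2b was the 1 called gene with blanks: it was at −0.97 to 1.12 in the 5 lumbar samples, at −2.71 in the sacral sample of mouse 13 and blank in the other 4 sacral samples.

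Called markers of peptidergic nociceptors were higher and those of large myelinated neurons lower. Of 8 peptidergic nociceptor markers, 4 were called higher (Trpv1, Tac1, Adcyap1 and Gfra3, all described above), against 0.292% of all tested genes, and the median change was 0.85. The summed level of the 8 was 667, 632, 639, 656 and 528 RPKM in the lumbar samples of mice 11 to 15 and 1278, 992, 1198, 950 and 962 RPKM in the sacral samples, higher in all 5 mice. Of 12 markers of large myelinated neurons, 2 were called lower, against 0.356% of all tested genes, and the median change was −0.35. Nefh, the heavy neurofilament, had lumbar levels of 7.62, 8.04, 7.80, 8.03 and 7.75 and sacral levels of 7.10, 7.11, 7.01, 7.26 and 7.28. Its groups were narrow and separate, and it changed by −0.69 ± 0.14 (SE; adjusted p = 0.0113). Ntrk3, the neurotrophin-3 receptor of proprioceptors, changed by −0.64 ± 0.14 (SE; adjusted p = 0.0313).

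Pvalb, the parvalbumin gene of proprioceptors, differed by −2.91 ± 1.1 (SE; limma adjusted p = 0.281) with 1 blank sacral sample, Runx3 by −1.72 ± 0.98 (SE; adjusted p = 0.535) and Scrt1 by −0.47 ± 0.24 (SE; adjusted p = 0.47). Ntrk2, the BDNF receptor, had separate groups in the other direction (0.45 ± 0.14, SE; adjusted p = 0.134). The 2 calls on the large neuron list became 0 with mouse as a fixed block and without mouse 12 or 13, and 1 without mouse 11, 14 or 15, without the lumbar sample of mouse 13, 14 or 15, or without the sacral sample of mouse 11 or 13. Nonpeptidergic nociceptor markers (15 tested, median change −0.06) and markers of C fibre low threshold mechanoreceptors (5 tested, median −0.03) had no called member, and Th, which marks the latter, differed by 0.29 ± 0.20 (SE; adjusted p = 0.652).

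**Figure D4:**
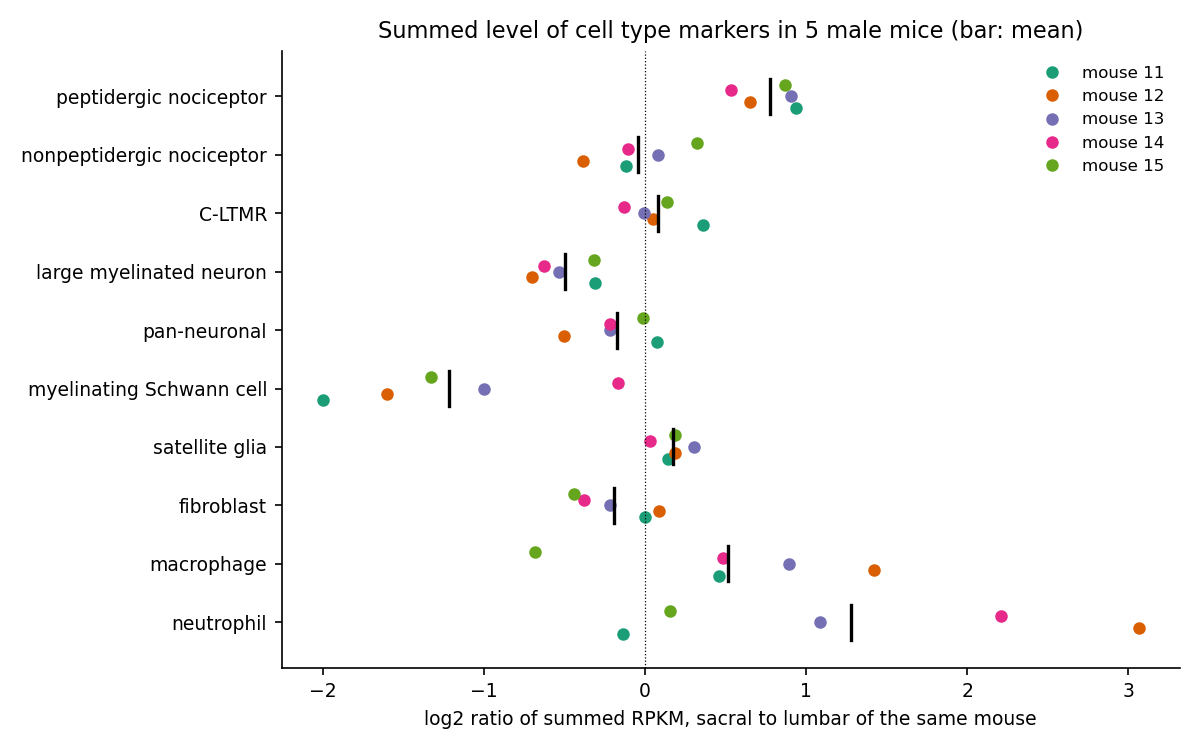
For each marker list, points give the log2 ratio of summed RPKM between the sacral and the lumbar sample of each of 5 male mice, and the bar gives the mean. Peptidergic nociceptor and satellite glia sums lie above 0 and large neuron and myelinating Schwann cell sums below 0 in all 5 mice, while neutrophil sums run from −0.14 to 3.07.

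Markers of other cells gave no called gene. The summed level of 11 neutrophil markers was 218, 29.5, 122, 42.7 and 87.8 RPKM in the lumbar samples of mice 11 to 15 and 198, 247, 259, 198 and 97.8 RPKM in the sacral samples, higher in sacral in 4 of 5 mice. Mmp8, a neutrophil collagenase, differed by 1.99 ± 1.07 (SE; limma adjusted p = 0.498). Macrophage sums ran from 50 to 101 RPKM in lumbar and 58.9 to 187 RPKM in sacral samples, and fibroblast sums from 230 to 308 and 202 to 284 RPKM. Lymphocyte sums were low, at 0.79 to 8.2 RPKM in lumbar and 2.3 to 14.45 RPKM in sacral samples, and higher in sacral in all 5 mice. Only 1 of the 8 lymphocyte markers passed the filter on low genes. When the mean level of the myelinating Schwann cell markers entered the model as a covariate, Tac1 and Cartpt remained called (adjusted p = 0.0161 and 0.0338) and the other 80 genes did not. All 82 genes kept their direction. The median change of the 37 higher genes went from 1.29 to 1.18, and that of the 45 lower genes from −1.30 to −0.68. The covariate itself differed between levels, so the part of myelin content in these changes cannot be told apart from level.

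The same genes were then read in female mice. The 14 female samples gave no male difference, but they shared the fit and the filter behind the 82 calls, and a fit of the 10 male samples alone, which also left out the mouse block, called 55 genes, 44 of them shared. The direction was the same in females for 81 of the 82 genes, against 60% of all tested genes, with Plxna1 (0.06 in females and −0.93 in males) as the exception. In females 37 of the 82 were called too, which is 45.1% of the genes called in males and 64.9% of the 57 called in females. The female count ran from 4 with the Schwann cell marker level as a covariate to 135 with sample quality weights. It was 13 with a fixed block for each of the 11 paired mice and 20 in batch 2 alone, so these shares hold for the fit given here alone. The female change was smaller than the male change in 78 of the 82 genes, with a median absolute change of 0.81 against 1.3, which is a description because the male values chose the genes. The level by sex interaction called 0 of 12650 genes (limma, lowest adjusted p = 0.973), with an unadjusted p under 0.05 in 582 genes (4.6%). No difference between the sexes in the effect of level was thus shown for these genes on this scale.

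**Figure D5:**
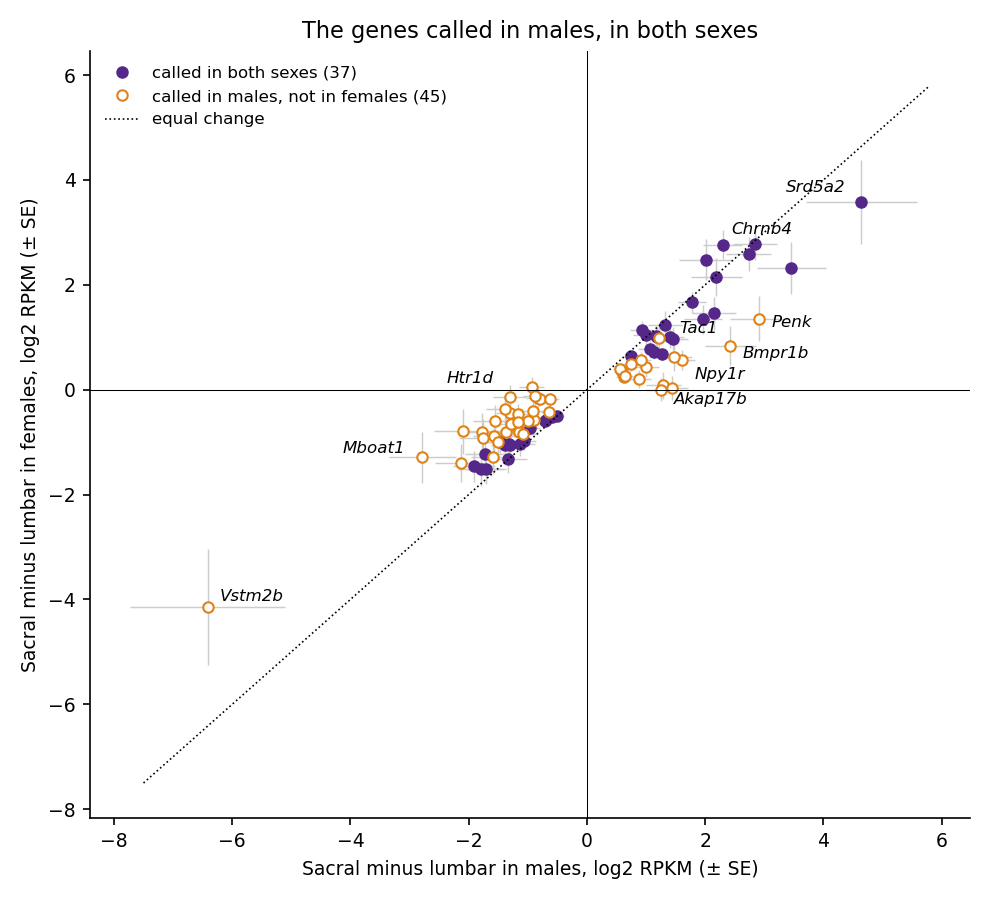
Sacral minus lumbar change in log2 RPKM of the 82 genes, in males on the x axis and in females on the y axis, with SE bars. Filled points are the 37 genes called in both sexes, open points the 45 called in males and not in females, and most points lie nearer to 0 on the female axis than on the dotted line of equal change.

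Among the genes described above, the interaction had an unadjusted p under 0.05 for Plxna1 (difference 0.99 ± 0.28, SE; limma adjusted p = 0.973), Tac1, with changes of 1.27 in males and 0.68 in females (difference −0.59 ± 0.18, SE; limma adjusted p = 0.973), Npy1r (1.61 and 0.57; adjusted p = 0.973), Htr1d (−1.31 and −0.15; adjusted p = 0.973), Penk (2.92 and 1.35; adjusted p = 0.999) and Bmpr1b (2.42 and 0.84; adjusted p = 0.999). Chrna3 and Chrnb4 changed alike in size, by 2.84 and 2.29 in males and 2.79 and 2.77 in females, with interaction differences of −0.05 ± 0.49 and 0.47 ± 0.43 (SE). Srd5a2 depended on the scale. On log2 RPKM with blanks filled, its change was 4.64 in males and 3.58 in females, and the interaction was −1.07 ± 1.24 (SE; adjusted p = 0.999). With blanks left missing, the female change was 1.95 (adjusted p = 0.786), no longer called, and the interaction was −2.69 ± 1.57 (SE; limma adjusted p = 0.998). On log2(RPKM + 1), which gives little weight to levels near 0, it was 3.59 in males and 0.58 in females, and the interaction was −3.01 ± 0.38 (SE; adjusted p = 3.27e-04), the 1 call among all tested genes on that scale.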

How the data were processed

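Whole DRG RNA had been amplified (Ovation RNA-Seq v2), made into Nextera XT libraries and sequenced on a HiSeq2500. Per the study's methods, the authors aligned reads to mm9 with Subread, counted unique reads in Ensembl 67 genes with featureCounts, and deposited log2 RPKM values scaled by voom and TMM (edgeR 3.12.1, limma 3.26.9), with the difference between 2 batches subtracted. Blanks in the deposited table are genes with no reads. All males were batch 2, so that subtraction leaves their differences unchanged. The counting strand is not given in the sources used here.

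Blanks were set to the value of 0.5 reads. Genes with a mean log2 RPKM of at least 0 in any of the 4 groups were tested (12650 genes) with limma 3.58.1 over all 24 samples, with group means, batch, and mouse as a random block, and an intensity trend. The common correlation within mouse was −0.0175, and the correlations of lumbar and sacral residuals in mice 11 to 15 were 0.0282, −0.0226, 0.0345, −0.0150 and −0.00607. Pairing comes from the mouse numbers in the labels. Calls used a Benjamini-Hochberg adjusted p of 0.05 or less over all tested genes, and the code was tested on simulated data. Genes named were the 12 largest rises and the 12 largest falls among called genes with no blank and the same direction in every pair, called list members, genes singled out in the study's text, and called genes with blanks, and a few of these are not reported here. The members and lists were chosen with earlier results of these data known. Alternatives covered blocks, samples, batch, blanks, scale, filters, centring, weights, trend, a Schwann cell covariate and leaving out samples. P-values measure the spread between these mice.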

Additional observations from a re-analysis of the deposited data

Results flagged for a closer look

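Of 206 groups of 5 male samples checked, 11 had a sample far from the other 4 by Dixon's test at the 95% level, and chance flags about 1 in 20 groups. The lumbar sample of mouse 15 was highest for Mboat1 (3.19 log2 RPKM, next 2.31) and for Serpind1 (3.62, next 2.60). The sacral sample of mouse 15 was highest for Cdh12 (1.09, next −0.26) and Gm5909 (4.45, next 3.70). The lumbar sample of mouse 11 was lowest for Kcna1 (5.73, next 6.31) and Plxna1 (2.47, next 2.81), and it had the highest mitochondrial share (41.5% of reads, next 28.7%). The sacral sample of mouse 12 was lowest for Fam70a (6.43, next 6.70) and Tacc1 (3.21, next 3.82). In mouse 13 the lumbar sample was highest for Htr1d (4.24, next 3.92) and the sacral sample was highest for Cnr1 (4.12, next 3.64).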

How the results depend on the processing

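Against 82 called genes, the count was 31 with mouse as a fixed replicate block in the 5 male pairs, 51 with that block in the 11 paired mice, 94 with no replicate block, 53 with batch 2 alone, 52 with sample quality weights and 2 with the Schwann cell marker level as a covariate. Leaving out a male sample or mouse gave 33 to 94 called genes. The fits of the 5 pairs or 11 paired mice also leave out samples, and the 10 male samples with no replicate block gave 55, so these counts are not the effect of pairing alone. None of the 82 genes reversed under any of the 30 alternatives. Tac1 and Cartpt were called in all 30, 14 further genes in all but 1, 55 of the 82 in at least 15, and the others in 9 to 14, among them Reln, Serpind1, Fam107a, Zfp503, Ypel2, Ugt8a and Drp2. With the Schwann cell covariate the uncalled Runx3 went to 0.50 and Th to −0.045. The level by sex interaction called 1 gene on log2(RPKM + 1), Srd5a2. Level accounted for 69.1% of component 1 with no filter, and for 80.0% to 85.8% when a mouse was left out. The cause of these changes was not tested. With 5 pairs from a single batch, and with libraries made by amplification, genes near 1 read per sample carry little information, and the values set for their blanks decide their differences.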

Other observations

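Semaphorins and plexins, guidance ligands and their receptors, were read as a family after their values had been seen. Of 24 tested in males, 4 were called lower in sacral DRG, against 0.356% of all tested genes, and 0 higher, and the median change was −0.12. The called members were Sema3b (−1.17 ± 0.23, SE; limma adjusted p = 0.0112), Sema5a (−0.71 ± 0.16, SE; adjusted p = 0.0299), Sema7a (−1.0 ± 0.24, SE; adjusted p = 0.0453) and Plxna1 (−0.93 ± 0.21, SE; adjusted p = 0.0344). Sema7a was lower in 4 of 5 mice, and the other 3 in all 5, although the change of Plxna1 in mouse 11 was only −0.007. A fixed block for each mouse over the 5 pairs called none of the 4 (limma adjusted p = 0.0870, 0.123, 0.340 and 0.300 in the same order).

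Among 13 tested cytochrome P450 genes, also chosen after values were seen, Cyp1b1 was the called member, against 0.292% of all tested genes called higher. This enzyme, which hydroxylates estrogens, had lumbar levels of 3.57, 3.40, 3.15, 3.16 and 3.54 and sacral levels of 4.37, 4.55, 4.69, 4.47 and 4.45 in mice 11 to 15. The groups were separate and narrow, and it rose by 1.14 ± 0.17 (SE; limma adjusted p = 8.03e-04).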
